A study of Mus musculus with 12 samples.

Results

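The genes described here encode the subunits of the respiratory chain (complexes I to IV) and of ATP synthase (complex V) that are made in the cytosol from nuclear genes. They were taken by symbol: every Nduf gene of the A, B, C, S and V series followed by a digit, Sdha to Sdhd, the Uqcr genes, Cyc1, the Cox4 to Cox8 genes and the Atp5 genes. Of the 15803 transcripts with a read in at least 1 library, 81 were members: 37 of complex I, 4 of complex II, 9 of complex III, 14 of complex IV and 17 of complex V. Ndufa4, first assigned to complex I and now known as a complex IV subunit, and its relative Ndufa4l2 were placed in complex IV. The muscle, lung and testis isoforms Cox4i2, Cox6a2, Cox6b2, Cox8b and Cox8c and the inhibitor Atp5if1 were not found under these symbols. In both assays 79 members passed the filter on low values and were tested. The other members were Ndufb11b, a near copy of Ndufb11 with 0.477 RPKM in a single footprint library, and the hypoxia-inducible Ndufa4l2, with 0.464 RPKM in a single RNA-seq library.

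As background, complex I takes electrons from NADH and complex II from succinate, and both pass them through ubiquinone to complex III, which hands them to cytochrome c and so to complex IV, where oxygen is reduced to water. Complexes I, III and IV pump protons across the inner mitochondrial membrane, and ATP synthase lets them flow back through a ring of c subunits that turns a central stalk inside its catalytic head. Complexes I, III, IV and V also hold subunits encoded in mitochondrial DNA and translated by mitochondrial ribosomes, so that each of them is built from the products of both genomes.

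Ribosome footprints and RNA came from KPC cells, a mouse line of pancreatic ductal adenocarcinoma, labelled as without treatment (PBS in what follows) or given Cis, the DNA-crosslinking drug cisplatin, for 6 h or 21 h. Footprints are the stretches of mRNA that ribosomes shield from RNase, so their density on a coding sequence reads its translation, and RNA-seq reads the amount of the mRNA. Each assay had 2 libraries per group, 12 in all, and the untreated libraries were the control for both times. How long the PBS cells were kept is not labelled. The labels also do not say whether replicates were separate cultures, so p-values measure only the spread between these samples, which may be technical. Values are RPKM, which scale reads to length and library size. They hold no outside reference, so a rise or fall is relative to the other transcripts of the assay. The total translation or RNA of the cells and the amounts of protein were not measured by these libraries. The length is that of the coding sequence in footprints and of the full transcript in RNA-seq.

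Footprint libraries held 3375480 to 5204127 reads and RNA-seq libraries 1985344 to 2901692, of which 51.8 to 56.6% fell on Lars2, Tmem38b and Mettl26. The members took 56034 to 81924 reads of a footprint library and 10212 to 14789 of an RNA-seq library. Across the 79 tested members, which are genes and not independent replicates, Pearson's r between the replicate libraries of a group was 0.978 to 0.995 for log2 values. Over all tested transcripts the spread between replicates, as chi-square divided by its degrees of freedom, was 1.70 to 4.05 times that of sampling alone in footprints and 1.45 to 1.84 times in RNA, and replicates entered the tests as separate libraries.

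The epithelial origin of the line showed in its keratins. Of 10 ductal or epithelial markers 9 were found, and Krt8, the most abundant, lay at 4819 and 4679 RPKM with PBS, 4949 and 4876 at 6 h, and 3214 and 3261 at 21 h. Krt18, Krt19 and Cdh1 were present in every library, while Epcam reached at most 1.83 RPKM and Cldn4 0.940 RPKM in footprints, and Cldn7 was not found. The summed epithelial footprints were 9804 and 9122 RPKM with PBS, 9382 and 9326 at 6 h, and 6739 and 6869.9 at 21 h. At 21 h 1 of 8 tested markers rose and 4 fell in footprints, beside 18.9% rising and 20.2% falling over all transcripts. Among 8 mesenchymal markers Vim made up nearly all of a sum of 2875 to 3868 RPKM, and Pdgfra, Pdgfrb, Lum and Col1a2 were at or near 0. Both tested mesenchymal markers, Vim and Col3a1, fell at 21 h. Summed footprints of the acinar, islet, immune and endothelial markers reached at most 7.59, 0, 9.68 and 0.666 RPKM in any library, with Cpa1, Ins1, Ins2 and Cd3e not found. Of the acinar list, Cela1 rose in footprints at 21 h, to 6.12 and 6.10 RPKM. In RNA-seq 2 of 7 epithelial markers rose at 21 h and 3 fell, beside 11.6% rising and 12.2% falling over all transcripts. RNA of the immune marker Cd68 was 0.403 and 1.03 RPKM with PBS, 0 in both 6 h libraries, and 2.13 and 4.27 at 21 h. It was called higher at 21 h, but it reached the filter on low values only through its 21 h libraries. That call is therefore not read as a rise. Neither the Cela1 call held without PBS replicate 1 or Cis 21 h replicate 2 (limma adjusted p from 0.0525 to 0.1) nor that of Cd68 without PBS replicate 1 or 2 (limma adjusted p from 0.0575 to 0.193), and Cela1 had 0.78 without PBS replicate 1, against 1.18 with all libraries. The part of these marker changes in the results on the members was not tested.

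In untreated cells the subunits of a complex were translated at unequal levels, with the highest member 11.8 times the lowest in complex I, 3.20 times in complex II, 6.92 in complex III, 109.9 in complex IV and 13.7 in complex V. Footprints per tested member ran from 13.6 RPKM for Cox7a1, the heart and muscle isoform of its subunit, to 2321 RPKM for Atp5j2, subunit f of the ATP synthase membrane part (means of both PBS libraries). The range in complex IV rests on Cox7a1, whose PBS libraries lie far apart on few reads (given below), so it is uncertain. The medians were 189 RPKM in complex I, 114 in complex II, 217 in complex III, 430.4 in complex IV and 562 in complex V, against 21.7 over all 9312 transcripts tested in both assays. RNA medians had the order 26.9 RPKM (complex II), 34.8 (complex I), 51.8 (complex III), 77.4 (complex IV) and 99.9 (complex V).

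The most abundant complex I subunits in footprints were Ndufs5, a small intermembrane-space subunit, at 569 and 609 RPKM in the PBS libraries, and Ndufb1 at 532 and 444. In complex II these were the membrane anchor Sdhc (273 and 256) and the flavoprotein Sdha (125 and 129.6). In complex III, Uqcrh, the hinge subunit of cytochrome c1, had 712 and 902 RPKM and Uqcrq 716 and 649. Cox4i1, the nuclear subunit at which complex IV binds ATP, led complex IV with 1483 and 1518 RPKM, and Cox6c followed with 1193 and 1255. Atp5j2 (2414 and 2227) and the catalytic subunit Atp5b (1486 and 1404) led complex V. In RNA the leaders were in part other genes: Ndufa2 (238 and 283 RPKM) and Ndufb9 (151 and 157) in complex I, Sdhb (33.4 and 37.4) and Sdhd (34.0 and 31.4) in complex II, and Uqcrh (172 and 192) and Uqcrb (85.0 and 86.3) in complex III. Cox4i1 (366 and 397) and Cox5a (202 and 237) led complex IV RNA, and Atp5b (228 and 227) and Atp5c1 (207 and 206) complex V RNA. The PBS ranges of Sdhb and Sdhd RNA overlapped, as did those of Uqcrh and Uqcrq footprints, so neither order is resolved.

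Mean footprint RPKM per mean RNA RPKM with PBS had a median of 5.53 over the tested members and 3.44 over all transcripts. It ran from 0.804 for Ndufs7, an iron-sulfur core subunit of complex I, to 39.4 for Atp5md, a small membrane subunit of complex V. Ndufs4 stood at 33.6 and Cox7a2l at 0.806. This ratio depends on the transcript chosen for a gene, because RNA reads are divided by its whole length: Atp5md and also Atp5g1, Ndufb2 and Sdhc, with ratios of 29.3, 28.5 and 21.1, are listed with transcripts of 2733, 4715, 4371 and 3171 bases, against a median of 861 bases for the members. The RNA library size also holds the reads on Lars2, Tmem38b and Mettl26 (54.5% and 53.8% with PBS). This raises the ratio of all other transcripts alike. Levels between genes are therefore compared here only as deposited, and changes only within a gene.

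The first comparison asked how translation of the subunits stood after 6 h of Cis. Few of them changed: Ndufs6, Ndufa6 and Atp5e rose in footprints, Ndufs4 and Atp5mpl fell, and the other 74 of 79 did not pass (limma, adjusted p under 0.05 with Benjamini-Hochberg adjustment over all 10390 transcripts tested). Over all transcripts 1.05% rose and 0.991% fell, and the members' shares of 3.80% and 2.53% rest on 3 and 2 genes. The median log2 fold change was 0.055 over the members and -0.011 over all, and with a library left out the members' ran from 0.021 without PBS replicate 2 to 0.082 without PBS replicate 1. Fold changes are differences of log2(scaled RPKM + 0.5), a scale that understates the change of transcripts with low values. In bulk lysates, fewer cells of a kind and less RNA per cell cannot be told apart.

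Ndufs4 (ENSMUSG00000021764), an accessory subunit that holds the NADH-oxidising module on the rest of complex I and is mutated in Leigh syndrome, had footprints of 419.8 and 441 RPKM with PBS, 313 and 308 at 6 h, and 161 and 141 at 21 h. The 3 groups did not overlap, and the level was highest with PBS and lowest at 21 h. Here and below, overlap between groups is a description. Where a gene was named because it passed, separated groups add no support, since both rest on the same libraries. At 6 h it fell by 0.49 on the log2 scale (SE 0.090, limma adjusted p = 0.0383). Ndufs6, a zinc-binding subunit of the same module, had 285 and 304 RPKM with PBS, 387 and 449.96 at 6 h, and 275 and 276 at 21 h, so that both 6 h libraries lay above the other 4. Its log2 fold change at 6 h was 0.49 (SE 0.095, limma adjusted p = 0.0416). Ndufa6, which binds the mitochondrial acyl carrier protein, had 362 and 319.9 RPKM with PBS, 463 and 469 at 6 h, and 281 and 294 at 21 h. It was high at 6 h and lowest at 21 h, with no overlap between groups, and its change at 6 h was 0.44 (SE 0.082, limma adjusted p = 0.0383).

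In complex V, Atp5e, the epsilon subunit of the central stalk, had footprints of 1148 and 1092 RPKM with PBS, 1616 and 1491 at 6 h, and 1542 and 1800.4 at 21 h. Both treated groups lay above the PBS libraries, and the change at 6 h was 0.46 (SE 0.092, limma adjusted p = 0.047). Atp5mpl, a small proteolipid of the membrane part, had 360.01 and 419 RPKM with PBS, 278 and 257 at 6 h, and 357 and 378 at 21 h. Its 6 h libraries were below the other 4, and it fell by 0.55 on the log2 scale (SE 0.10, limma adjusted p = 0.0383). In the complexes where none passed, the largest values were 0.13 (SE 0.11, limma adjusted p = 0.56) for the anchor Sdhd, 0.30 (SE 0.11, limma adjusted p = 0.183) for Uqcrq and 0.44 (SE 0.094, limma adjusted p = 0.0541) for Cox7a2. All 5 calls at 6 h ended when any one of the PBS or 6 h footprint libraries was left out, each of which left 0 members passing in limma (adjusted p of the 5 members from 0.0571 to 0.259). At an unadjusted p under 0.05 there were 20 of 79 members, beside 2217 of all 10390 transcripts. With limma's voom on the recovered reads 8 members were higher and 3 lower, beside 454 and 822 of all.

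By 21 h more of the subunits had changed. Footprints of 15 members rose and those of 4 fell, out of 79 (limma, adjusted p under 0.05), and the values of those that passed ran from -1.54 for Ndufs4 to 1.62 for Cox7a1. Over all transcripts 18.9% rose and 20.2% fell. The members' 19.0% of rises is close to this background, and their 5.06% of falls is below it. With RPKM as deposited, without scaling, 19 members rose and 2 fell, against 2182 and 1971 over all transcripts. The median log2 fold change was 0.081 for the members and 0.0062 for all transcripts. Above 0 lay 48 of 79 members, beside 5252 of all 10390 transcripts. After quantile normalization the medians were 0.011 and 0.030, so the members' no longer exceeded that of all transcripts, and with a library left out the members' ran from 0.062 without Cis 21 h replicate 2 to 0.14 without Cis 21 h replicate 1. The number that fell was 2 without Cis 6 h replicate 1, 2 without Cis 6 h replicate 2 and 2 without Cis 21 h replicate 1.

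The complexes differed in how many of their subunits passed, without a test of that difference. Over all transcripts 18.9% rose and 20.2% fell. In complex I 4 rose and 2 fell of 36 (median -0.066), and all 7 core subunits were among those that did not pass (limma, values from -0.34 to 0.24, 1 of them at an unadjusted p under 0.05). In complex II, Sdhb fell and the other 3 did not pass (median 0.025). In complex III, 2 of 9 rose (median 0.17), both among the small accessory subunits. In complex IV, 6 of 13 rose (median 0.26), and 12 had values above 0, beside 5252 of all 10390 transcripts. In complex V 3 rose and 1 fell of 17 (median 0.13). With a library left out, the medians ran from -0.092 to 0.044 in complex I, -0.014 to 0.082 in complex II, 0.10 to 0.26 in complex III, 0.20 to 0.35 in complex IV and 0.080 to 0.17 in complex V. The plot of fold changes by complex shows these distributions.

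**Figure D1:**
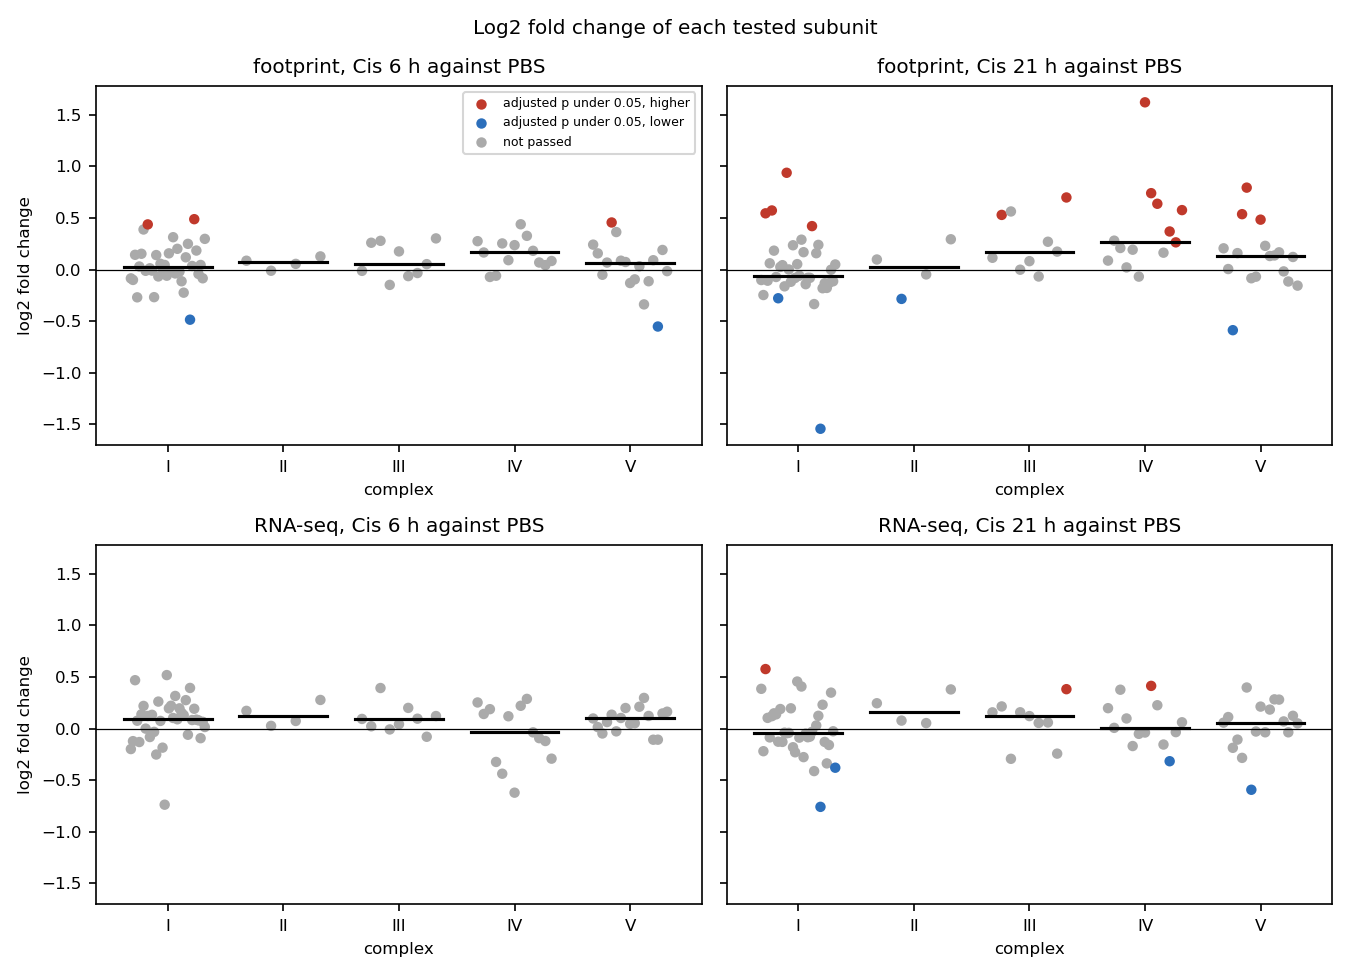
Log2 fold change of each of the 79 tested subunits (points) by complex, in footprints (top) and RNA-seq (bottom), at 6 h (left) and 21 h (right) against PBS; bars are medians and coloured points passed an adjusted p under 0.05 in limma. In footprints at 21 h, 6 of 13 complex IV subunits passed above 0, beside 18.9% of all transcripts, and Ndufs4 of complex I lies at -1.54.

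In complex I the fall of Ndufs4 at 21 h was 1.54 on the log2 scale (SE 0.090, limma adjusted p = 1.38e-05), and it passed under each alternative and with each library left out. The footprints of Ndufb1 (ENSMUSG00000113902), one of the smallest subunits of the membrane arm, were 532 and 444 RPKM with PBS, 525 and 558 at 6 h, and 1003 and 911 at 21 h. Its 21 h libraries were the highest and did not overlap the rest, and the rise was 0.94 (SE 0.096, limma adjusted p = 0.000198). Ndufa2, an accessory subunit of the NADH-oxidising module, had 309 and 230.4 RPKM with PBS, 299.97 and 299 at 6 h, and 375 and 442 at 21 h, a rise at 21 h of 0.57 (SE 0.13, limma adjusted p = 0.00905). With a library left out its value was as low as 0.38. Its PBS libraries were further apart than those of 6 h, and both 21 h libraries lay above them all.

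Ndufa11, a membrane-arm subunit at the contact with complex III in supercomplexes, had footprints of 118 and 119.5 RPKM with PBS, 152 and 115 at 6 h, and 181 and 175 at 21 h. Its 21 h libraries lay above the other 4, with a rise of 0.55 (SE 0.13, limma adjusted p = 0.00957) that did not pass without PBS replicate 1 (adjusted p = 0.0507). Ndufa6 fell at 21 h by 0.28 on the log2 scale (SE 0.082, limma adjusted p = 0.0258), a call that ended without PBS replicate 1, Cis 6 h replicate 1 or 2 or Cis 21 h replicate 1 (adjusted p from 0.0573 to 0.109), and also with RPKM as deposited. Ndufc2, another membrane-arm subunit, which was picked after its values were seen, had 258 and 192 RPKM with PBS, 215 and 202 at 6 h, and 307 and 306 at 21 h. It rose by 0.42 (SE 0.12, limma adjusted p = 0.0244) and did not pass without PBS replicate 2 or Cis 21 h replicate 1 or 2 (adjusted p from 0.0642 to 0.112, with a value of 0.23 without PBS replicate 2). The Ndufc2 call was also lost after quantile normalization (limma adjusted p = 0.0527) and without the filter on low values (limma adjusted p = 0.0509). Without the trend of variance with intensity it was lost too (limma adjusted p = 0.0903). Of the core subunits, Ndufs1, which holds iron-sulfur clusters of the NADH module, had 53.2 and 46.4 RPKM with PBS, 40.9 and 45.0 at 6 h, and 38.4 and 42.3 at 21 h. Its value at 21 h, -0.34 (SE 0.12, limma adjusted p = 0.0511), just missed the threshold. The flavin-binding Ndufv1 (-0.0020) was nearer 0.

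Complex II is the only one of the complexes with all subunits nuclear-encoded, and its 4 subunits could be followed in full. The iron-sulfur subunit Sdhb had footprints of 106 and 94.1 RPKM with PBS, 98.0 and 102 at 6 h, and 81.4 and 86.6 at 21 h, with both 21 h libraries below the other 4. It fell by 0.28 on the log2 scale (SE 0.096, limma adjusted p = 0.0438), and did not pass without PBS replicate 1 or 2, Cis 6 h replicate 1 or 2 or Cis 21 h replicate 1 or 2 (adjusted p from 0.0531 to 0.181), nor with RPKM as deposited. Sdha, which holds the flavin and oxidises succinate, had 125 and 129.6 RPKM with PBS, 130.4 and 142 at 6 h, and 141 and 138 at 21 h, and its 21 h libraries lay above those of PBS, but the test did not pass, at 0.097 (SE 0.090, limma adjusted p = 0.418). The anchors Sdhc and Sdhd had -0.047 and 0.29, also not passed.

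In complex III, Uqcrq (ENSMUSG00000044894), a small subunit near the ubiquinone site, had footprints of 716 and 649 RPKM with PBS, 853 and 844 at 6 h, and 1001 and 1286 at 21 h. The groups did not overlap and the order was PBS, 6 h, 21 h, with a rise at 21 h of 0.70 (SE 0.11, limma adjusted p = 0.00189). Uqcr10, a small subunit beside cytochrome c1, had 349 and 332 RPKM with PBS, 382 and 444 at 6 h, and 492 and 517 at 21 h, again without overlap, and rose by 0.53 (SE 0.091, limma adjusted p = 0.00233) at 21 h. The core subunits did not pass: the values were 0.081 for Uqcrc1 and -0.068 for Uqcrc2, 0.11 for the cytochrome Cyc1 and 0.27 for the Rieske protein Uqcrfs1. Uqcr11, a further small subunit, had 157 and 117 RPKM with PBS, 176 and 157 at 6 h, and 165 and 257 at 21 h, and a value at 21 h of 0.56 (SE 0.20, limma adjusted p = 0.0548).

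Complex IV held pairs of tissue isoforms. Cox7a2 (ENSMUSG00000032330), the form of subunit 7a made in most tissues, had footprints of 183 and 158 RPKM with PBS, 245 and 221 at 6 h, and 293 and 289.8 at 21 h. No groups overlapped, and the rise at 21 h was 0.74 (SE 0.094, limma adjusted p = 0.000539). Cox7a2l, a relative that joins complexes III and IV, had 49.7 and 42.7 RPKM with PBS, 63.6 and 53.8 at 6 h, and 70.2 and 77.6 at 21 h and rose by 0.64 (SE 0.12, limma adjusted p = 0.00435). The muscle form Cox7a1 had the lowest footprints of the tested members, 20.9 and 6.43 RPKM with PBS, 17.6 and 11.1 at 6 h, and 47.8 and 30.0 at 21 h, on 29 and 8 reads with PBS and 47 and 28 at 21 h. Its rise of 1.62 (SE 0.46, limma adjusted p = 0.0229) had the widest error of the called members. The call ended without PBS replicate 2 or Cis 21 h replicate 1 (values of 0.83 and 1.30). It was also lost without the filter on low values or without the trend of variance with intensity (limma adjusted p = 0.064 and 0.0754).

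Ndufa4 had footprints of 973 and 756 RPKM with PBS, 853 and 988 at 6 h, and 1298 and 1327 at 21 h and rose at 21 h by 0.58 (SE 0.12, limma adjusted p = 0.00503). The 21 h libraries were above the other 4, whose PBS and 6 h values overlapped. Cox7c, a small membrane subunit, also picked after its values were seen, had 1037 and 1039.8 RPKM with PBS, 1104 and 1096 at 6 h, and 1279 and 1480 at 21 h and rose by 0.37 (SE 0.086, limma adjusted p = 0.00984). This call was lost without the trend of variance with intensity (limma adjusted p = 0.0645). Cox8a, another small subunit of the membrane part, had 1042 and 1155 RPKM with PBS, 1132 and 1152 at 6 h, and 1335 and 1367 at 21 h. It rose by 0.26 (SE 0.082, limma adjusted p = 0.0325) and did not pass without PBS replicate 1, Cis 6 h replicate 1 or 2 or Cis 21 h replicate 1 or 2 (adjusted p from 0.0611 to 0.134, with a value of 0.17 without PBS replicate 1). Among those not passed, values were 0.087 for Cox4i1, 0.28 for Cox5a and -0.069 for Cox6c. The ubiquitous isoforms Cox6a1 and Cox6b1 had 0.020 and 0.19.

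In ATP synthase the 21 h changes ran in both directions within one functional unit. Atp5c1 (ENSMUSG00000025781), the gamma subunit that turns inside the catalytic head, had footprints of 571 and 706 RPKM with PBS, 607 and 632 at 6 h, and 436 and 429 at 21 h. Its 21 h libraries lay below all others, and it fell by 0.59 on the log2 scale (SE 0.11, limma adjusted p = 0.00334). Atp5e, its partner in the central stalk, stayed above PBS at 21 h with 0.54 (SE 0.092, limma adjusted p = 0.00231). The catalytic subunits Atp5a1 and Atp5b had 0.21 and 0.0047 and did not pass. Atp5h, subunit d of the peripheral stalk, had 469 and 475 RPKM with PBS, 427 and 444 at 6 h, and 693 and 662 at 21 h and rose by 0.48 (SE 0.074, limma adjusted p = 0.00135), with its 6 h libraries the lowest.

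The c ring is built from a single mature protein that 3 genes encode with different import signals. Atp5g1 had footprints of 240.2 and 181 RPKM with PBS, 255 and 288 at 6 h, and 328 and 420.3 at 21 h, without overlap between groups, and rose at 21 h by 0.79 (SE 0.15, limma adjusted p = 0.0039). Atp5g3, the most translated of the 3, had 1333 and 1074 RPKM with PBS, 1321 and 1224 at 6 h, and 1115 and 1227 at 21 h, and Atp5g2 had 317 and 292 RPKM with PBS, 327 and 326 at 6 h, and 261 and 332 at 21 h. Both overlapped between PBS and 21 h, with values of -0.069 and -0.085, not passed. The coding sequences of these 3 genes are alike over the mature protein, and processed copies of several Cox, Nduf and Atp5 genes exist in the mouse genome, so reads may have been split between copies and single values of such genes are uncertain to that extent.

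**Figure D2:**
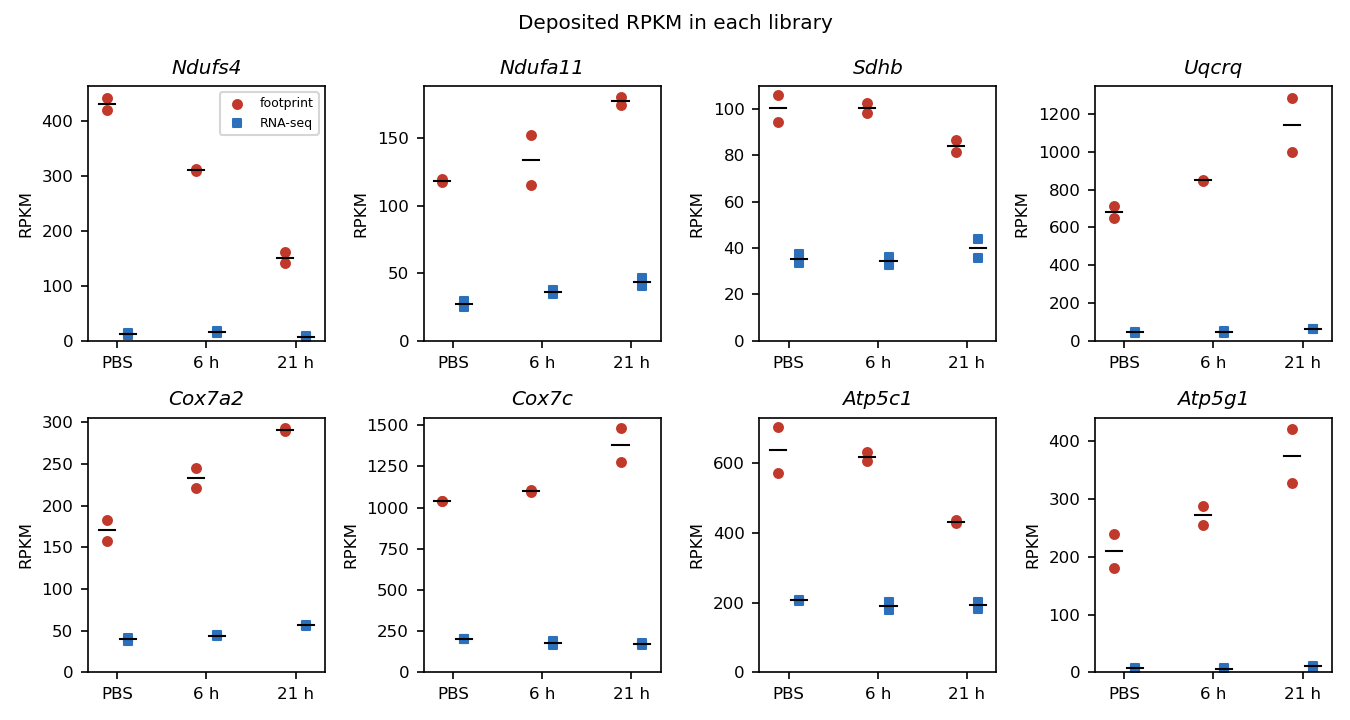
Deposited RPKM of 8 subunits in each library, as points with a bar at the mean of the 2 libraries, for footprints (red circles) and RNA-seq (blue squares) with PBS and at 6 h and 21 h of Cis. Ndufs4 footprints drop from 419.8 and 441 RPKM with PBS to 161 and 141 at 21 h, while those of Cox7a2 go from 183 and 158 to 293 and 289.8.

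Fewer members passed in RNA than in footprints. The RNA tests were less precise, with a median SE over the members of 0.14 against 0.10 in footprints. The counts of the assays are therefore not directly comparable. At 6 h none of the 79 tested members passed in limma, with 10 at an unadjusted p under 0.05 and 0 called by voom. Over all 9459 transcripts the share that passed was also 0% higher and 0% lower, with 1086 at an unadjusted p under 0.05 and 56 and 172 called higher and lower by voom. The member median was 0.089 and that of all transcripts -0.0060, or 0.021 and -0.069 with RPKM as deposited. The largest values in each complex were -0.74 (SE 0.18, limma adjusted p = 0.252) for Ndufb3, a membrane-arm subunit, 0.28 (SE 0.17, limma adjusted p = 0.553) for Sdhd, 0.39 (SE 0.20, limma adjusted p = 0.486) for Uqcr11, -0.62 (SE 0.47, adjusted p = 0.645) for Cox7a1 and 0.30 (SE 0.17, limma adjusted p = 0.543) for Atp5k, subunit e of the synthase. Ndufb3 RNA was 24.0 and 23.5 RPKM with PBS, 11.2 and 15.9 at 6 h, and 19.1 and 23.8 at 21 h, with the 6 h libraries lowest.

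At 21 h, RNA of Ndufa11, Uqcrq and Cox7a2 rose and that of Ndufs4, Ndufv3, Cox7c and Atp5g2 fell, out of 79 members. Over all transcripts 11.6% rose and 12.2% fell, so fewer members passed than the background share in each direction (3.80% and 5.06%). With RPKM as deposited the split was 5 higher and 2 lower for the members and 1367 and 968 over all. The member median was 0.050, and that of all transcripts 0.016. It was -0.011 beside 0.014 after quantile normalization, 0.13 beside 0.095 with RPKM as deposited, and with a library left out it ran from 0.025 without PBS replicate 1 to 0.050 without Cis 21 h replicate 1, so its sign depends on the normalization. In complex II no subunit passed, and Sdhd had the largest value there, 0.38 (SE 0.17, limma adjusted p = 0.132).

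Ndufs4 RNA was 11.003 and 14.6 RPKM with PBS, 14.8 and 17.3 at 6 h, and 6.83 and 8.73 at 21 h, so its 21 h libraries were lowest and its 6 h libraries highest, and it fell at 21 h by 0.76 on the log2 scale (SE 0.19, limma adjusted p = 0.0174). The call ended without PBS replicate 2 or Cis 21 h replicate 1 (values of -0.58 and -0.63). It just missed the threshold without the trend of variance with intensity (limma adjusted p = 0.0502). Ndufa11 RNA was 25.3 and 29.7 RPKM with PBS, 37.9 and 35.0 at 6 h, and 41.0 and 46.5 at 21 h. PBS was lowest, and the rise was 0.58 (SE 0.12, limma adjusted p = 0.00876). It did not pass without PBS replicate 1 or Cis 21 h replicate 2 (values of 0.47 and 0.52). Nor did it pass by voom (adjusted p = 0.0782) or without the trend of variance with intensity (limma adjusted p = 0.0534). Ndufv3, an accessory subunit at the flavin site, fell by 0.38 on the log2 scale (SE 0.12, limma adjusted p = 0.0477), and did not pass without PBS replicate 1 or 2, Cis 6 h replicate 1 or 2 or Cis 21 h replicate 2 (adjusted p from 0.0543 to 0.255, with a value of -0.23 without Cis 21 h replicate 2) or with RPKM as deposited. Uqcrq RNA was 46.2 and 43.5 RPKM with PBS, 42.7 and 50.7 at 6 h, and 61.0 and 63.2 at 21 h and rose by 0.38 (SE 0.11, limma adjusted p = 0.0371). The call was lost without PBS replicate 1 or 2 or Cis 21 h replicate 1 or 2 (values from 0.32 to 0.43). It was also lost after quantile normalization (0.29, limma adjusted p = 0.106).

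Cox7a2 RNA was 38.2 and 41.3 RPKM with PBS, 45.1 and 43.4 at 6 h, and 56.7 and 55.9 at 21 h, highest at 21 h without overlap, and rose by 0.41 (SE 0.10, limma adjusted p = 0.0185). It did not pass without PBS replicate 1 or 2 or Cis 21 h replicate 1 (values from 0.37 to 0.45). Nor did it pass after quantile normalization (0.32, limma adjusted p = 0.058) or by voom (adjusted p = 0.106). Cox7c RNA was 202 and 201 RPKM with PBS, 192 and 168 at 6 h, and 165 and 177 at 21 h, and it fell by 0.32 on the log2 scale (SE 0.085, limma adjusted p = 0.0243), which was lost without PBS replicate 1 or 2 or Cis 21 h replicate 1 or 2 (adjusted p from 0.0691 to 0.12) and with RPKM as deposited. In that gene, then, RNA fell while footprints rose. Atp5g2 RNA was 138 and 144 RPKM with PBS, 146 and 142 at 6 h, and 99.8 and 97.5 at 21 h, with the 21 h libraries below the other 4. It fell by 0.59 on the log2 scale (SE 0.083, limma adjusted p = 0.00122), and among the 7 RNA calls at 21 h it is the one that passed with each library left out. The number of members that rose at 21 h was 0 without PBS replicate 1, 1 without PBS replicate 2 and 1 without Cis 21 h replicate 2, and the number that fell was 2 and 1 without PBS replicates 1 and 2.

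Translation efficiency (TE), the footprint change beyond that of RNA, came from a model that held both assays. Its tests were the least precise, with a median SE over the members of 0.18. At 6 h none of the 79 members passed in limma (8 at an unadjusted p under 0.05, 0 by voom), with 0% higher and 0% lower over all 9312 transcripts (712 at an unadjusted p under 0.05, 4 higher and 10 lower by voom). The largest values of the complexes, from I to V, were -0.88 (SE 0.20, limma adjusted p = 0.249) for Ndufs4, -0.15 (SE 0.23, adjusted p = 0.922) for Sdhd, -0.26 (SE 0.19, adjusted p = 0.798) for Uqcrc2, 0.86 (SE 0.74, adjusted p = 0.846) for Cox7a1 and -0.64 (SE 0.22, adjusted p = 0.485) for Atp5k. At 21 h the TE of Cox7c rose by 0.69 (SE 0.12, limma adjusted p = 0.0408) and that of the other 78 did not pass. Over all transcripts 0.258% rose and 0.15% fell. In limma 13 members and 1183 of all 9312 transcripts had an unadjusted p under 0.05, and voom called 3 members higher and 0 lower, beside 74 and 78 of all. The Cox7c call ended without footprint PBS replicate 1 or 2, footprint Cis 6 h replicate 1 or 2, footprint Cis 21 h replicate 2, RNA-seq PBS replicate 1 or 2 or RNA-seq Cis 21 h replicate 1 or 2 (adjusted p from 0.0786 to 0.136), and also with RPKM as deposited. Without footprint Cis 21 h replicate 1 the count was 2.

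The largest TE value at 21 h was that of the little translated Cox7a1, 1.66 (SE 0.74, limma adjusted p = 0.385), which did not pass. Further large values were Ndufb1, with 0.98 (SE 0.24, limma adjusted p = 0.107), Atp5e, with 0.82 (SE 0.23, limma adjusted p = 0.158), and Uqcr11, with 0.86 (SE 0.34, limma adjusted p = 0.326), none of which passed. Ndufs4 had -0.78 (SE 0.20, limma adjusted p = 0.124), also not passed, so that its lower footprints at 21 h cannot be assigned to TE or to RNA alone by these tests. Sdhb had -0.36 (SE 0.18, limma adjusted p = 0.445). Medians of TE at 21 h were 0.0011 in complex I, -0.12 in complex II, 0.21 in complex III, 0.32 in complex IV and -0.040 in complex V, beside -0.040 over all transcripts. With a library left out they ran from -0.054 to 0.061, -0.23 to -0.071, 0.062 to 0.33, 0.23 to 0.40 and -0.042 to 0.094.

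Between 6 h and 21 h the direct comparison in footprints called 12 members higher and 6 lower at 21 h, or 15.2% and 7.59% of the members, beside 15% and 15.7% over all transcripts. Their share of rises is near that background and their share of falls below it. Among those that passed, the largest falls were Ndufs4 (-1.06), Ndufa6 (-0.72) and Ndufs6 (-0.62), and the largest rises Ndufb1 (0.80), Atp5h (0.62) and Ndufc2 (0.54). Ndufa6 and Ndufs6 had risen at 6 h, and from 6 h to 21 h they fell by 0.72 on the log2 scale (SE 0.082, limma adjusted p = 0.000626) and by 0.62 on the log2 scale (SE 0.095, limma adjusted p = 0.00221). Atp5k footprints were 537 and 531 RPKM with PBS, 427 and 426 at 6 h, and 586 and 618 at 21 h, lowest at 6 h, and rose from 6 h to 21 h by 0.47 (SE 0.073, limma adjusted p = 0.00233). Atp5mpl rose by 0.44 (SE 0.10, limma adjusted p = 0.0134) over this interval, though not without Cis 6 h replicate 2 or Cis 21 h replicate 2 (adjusted p = 0.0981 and 0.0598). The number of rises was 6 without Cis 6 h replicate 1, 4 without Cis 6 h replicate 2 and 4 without Cis 21 h replicate 2, and the number of falls was 3 without Cis 6 h replicate 2.

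In RNA from 6 h to 21 h, Cox6a1 and Ndufa4 rose and Ndufs4, Uqcr11 and Atp5g2 fell, out of 79, beside 7.53% and 8.2% over all transcripts. Here the scaling moved the median of all transcripts, from 0.014 to 0.15 with RPKM as deposited, and with it the split to 7 higher and 2 lower for the members and 1234 and 515 over all. Ndufs4 fell by 1.15 on the log2 scale (SE 0.19, limma adjusted p = 0.00429) and Atp5g2 by 0.70 on the log2 scale (SE 0.083, limma adjusted p = 0.000906), both also with each library left out. Cox6a1, a subunit at the dimer contact of complex IV, had RNA of 73.3 and 81.5 RPKM with PBS, 59.1 and 58.4 at 6 h, and 85.0 and 90.5 at 21 h, and the rise of 0.42 (SE 0.093, limma adjusted p = 0.0159) followed low 6 h libraries. Neither Cox6a1 nor Ndufa4 passed by voom (adjusted p = 0.0982 and 0.111). Cox6a1 was lost without Cis 6 h replicate 1 or 2 or Cis 21 h replicate 1 or 2 (adjusted p from 0.0549 to 0.0689). Ndufa4 (0.35) was lost without PBS replicate 1 or 2, Cis 6 h replicate 1 or Cis 21 h replicate 1 or 2 (adjusted p from 0.0612 to 0.211), and Uqcr11 (-0.69) without PBS replicate 1 or 2, Cis 6 h replicate 1 or 2 or Cis 21 h replicate 1 (adjusted p from 0.07 to 0.202, with a value of -0.32 without Cis 21 h replicate 1). The number of rises was 1 without PBS replicate 1 or 2, and 0 without Cis 6 h replicate 1 or Cis 21 h replicate 1 or 2.

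RPKM was also summed over the subunits of each complex. Footprints of the 37 complex I genes summed to 7802 and 7251 RPKM with PBS, 7917 and 7922 at 6 h, and 7862 and 8046 at 21 h. Those of complex II were 594 and 554 with PBS, 601 and 609 at 6 h, and 609 and 571 at 21 h, and those of complex III 3247 and 3237 with PBS, 3449 and 3577 at 6 h, and 4045 and 4260.2 at 21 h. After scaling, the PBS and 21 h libraries overlapped in complexes I and II, and in complex III both 21 h libraries lay above the other 4. Complex IV summed to 8617 and 8116 with PBS, 9157 and 9472 at 6 h, and 9873 and 10219 at 21 h, and complex V to 12370 and 11674 with PBS, 12808 and 12754 at 6 h, and 12881 and 13935 at 21 h. For complexes IV and V, too, both 21 h libraries were above both PBS libraries. After scaling, the ratio of the 21 h mean to the PBS mean was 1.03 for complex I, 1.002 for complex II, 1.25 for complex III, 1.17 for complex IV and 1.09 for complex V. The same ratios at 6 h were 1.04, 1.04, 1.07, 1.10 and 1.05. In RNA they were 1.07, 1.11, 1.04, 1.04 and 1.07 at 6 h, and 1.001, 1.17, 1.02, 1.02 and 0.995 at 21 h. With 2 libraries against 2, an exact two-sided permutation test cannot give a p below 0.33. The sums were not tested. In RNA the ratio of complex II rests on 1.22 and 1.01 in its libraries at 6 h, and on 1.27 and 1.06 at 21 h.

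**Figure D3:**
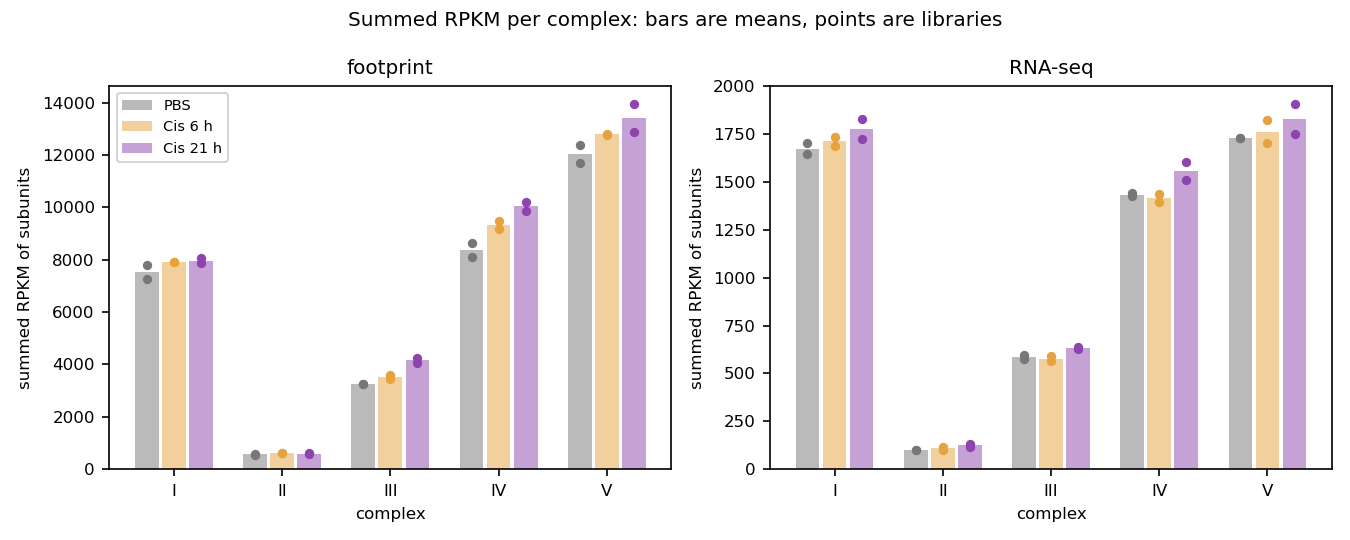
Summed RPKM of the subunits of each complex in footprints (left) and RNA-seq (right); bars are means of the 2 libraries and points are the libraries with PBS (grey) and at 6 h (orange) and 21 h (purple) of Cis. The footprint sum of complex III goes from 3247 and 3237 RPKM with PBS to 4045 and 4260.2 at 21 h.

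The partners of these subunits that are encoded in mitochondrial DNA behaved differently between the assays. Of 13 such genes 10 were found and tested. Their summed footprints were 23889.6 and 18419.7 RPKM with PBS, 19719 and 20908 at 6 h, and 32695 and 33364 at 21 h, and the summed RNA 9911 and 9696, 8806 and 9988, and 8828 and 8645. At 21 h the footprint sums were the highest and the RNA sums among the lowest. In footprints 9 of 10 rose at 21 h (median 0.62), beside 18.9% of all transcripts. In RNA 8 fell (median -0.30), beside 12.2% of all transcripts. In TE 7 rose (median 1.0004), among 24 of all transcripts. This count of 7 was 4 without footprint PBS replicate 2 or footprint Cis 21 h replicate 1, 2 without footprint Cis 6 h replicate 1 or 2, and 1 without footprint Cis 21 h replicate 2, RNA-seq PBS replicate 1 or 2 or RNA-seq Cis 21 h replicate 2. It was 0 without the variance trend, 2 without the filter and 2 with the compared groups alone. In RNA the number of falls was 4 without PBS replicate 2 or Cis 21 h replicate 2, and 3 without PBS replicate 1, 1 without the trend, 4 without the filter and 5 with RPKM as deposited. At 6 h the footprint median was -0.22 and none passed in limma (3 at an unadjusted p under 0.05, with 1 higher and 3 lower by voom), and with a library left out this median ran from -0.38 without PBS replicate 2 to -0.060 without PBS replicate 1. For mt-Co1, the catalytic subunit of complex IV, footprints were 5714 and 4551 RPKM with PBS, 4095 and 4421 at 6 h, and 7879 and 7655 at 21 h, with a change at 21 h of 0.57 (SE 0.10, limma adjusted p = 0.00272), and for mt-Nd4l of complex I they were 477 and 389.7 RPKM with PBS, 352 and 372 at 6 h, and 762 and 875 at 21 h, with 0.88 (SE 0.11, limma adjusted p = 0.000452). How footprints of mitochondrial ribosomes were recovered by the protocol was not tested. These values are relative and share their scaling with the footprints of cytosolic ribosomes. Whether a change in those moved them was not tested.

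Among the other genes of the pathway, footprints at 21 h changed as follows, where 18.9% of all transcripts rose and 20.2% fell. Of the assembly factors, 11 of 52 rose and 5 fell (median 0.12). The copper chaperone Cox17 differed from PBS at both times, falling at 6 h by 1.21 on the log2 scale (SE 0.20, limma adjusted p = 0.0324) and standing at 1.68 (SE 0.20, limma adjusted p = 0.000406) at 21 h, and Nubpl, which delivers iron-sulfur clusters to complex I, fell by 2.31 on the log2 scale (SE 0.23, limma adjusted p = 0.000163). Of the electron carriers and ubiquinone synthesis genes, 2 of 15 rose and 3 fell (median -0.18), with Coq10b, a ubiquinone-binding protein, at 1.58 (SE 0.15, limma adjusted p = 0.000142) and Pdss2, which makes the ubiquinone tail, falling by 1.71 on the log2 scale (SE 0.29, limma adjusted p = 0.0022). In the tricarboxylic acid cycle, 3 of 17 rose and 5 fell, and the GTP-forming succinyl-CoA ligase subunit Suclg2 fell by 1.98 on the log2 scale (SE 0.11, limma adjusted p = 1.22e-05). In protein import into mitochondria, 5 of 19 rose and 0 fell. Among regulators of respiratory genes, some of which act on mitochondrial DNA, 2 of 10 rose and 1 fell: Tfam, the packaging and transcription factor of mitochondrial DNA, and the coactivator Pprc1 rose, and Gabpb1, a subunit of the ETS factor GABP, fell. Rises among assembly factors were 7 without PBS replicate 1, with falls at 3 without PBS replicate 1, and the median ran from 0.048 without PBS replicate 2 to 0.15 without Cis 21 h replicate 1. That of the electron carriers ran from -0.21 without PBS replicate 1 to -0.10 without Cis 21 h replicate 1. The rises of electron carriers were 1 without PBS replicate 1 or 2, Cis 6 h replicate 1 or 2 or Cis 21 h replicate 2, and the falls of cycle enzymes 3 without PBS replicate 2, Cis 6 h replicate 1 or 2 or Cis 21 h replicate 1 or 2. The fall of Cox17 at 6 h did not pass without PBS replicate 1 or 2 or Cis 6 h replicate 1 or 2 (limma adjusted p from 0.107 to 0.197), the rise of Tfam without PBS replicate 2 or Cis 21 h replicate 1 (limma adjusted p from 0.0671 to 0.0863) and the fall of Gabpb1 without PBS replicate 1 or 2 or Cis 21 h replicate 1 or 2 (limma adjusted p from 0.0556 to 0.15). These genes were chosen here after their values were seen.

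RNA of the same lists at 21 h gave 6 rises and 3 falls of 48 assembly factors, 1 and 2 of 16 electron carriers, and 2 and 2 of 17 cycle enzymes, beside 11.6% rising and 12.2% falling over all transcripts. Of the 19 import genes and 9 regulators none passed in RNA (limma, 0 and 2 at an unadjusted p under 0.05). In footprints at 21 h, 17 of 76 rose and 7 fell among cytosolic ribosomal proteins (median 0.087) and 18 of 78 rose and 6 fell among mitochondrial ones (median 0.079), beside 18.9% rising and 20.2% falling over all transcripts. In RNA 37 of 78 cytosolic ribosomal protein genes fell (median -0.23), whereas 9 of 78 rose and 2 fell of the mitochondrial ones (median 0.13). For the subunits the RNA median was 0.050. No difference between these lists was tested. Footprint rises of cytosolic ribosomal proteins were 11 without PBS replicate 2 or Cis 6 h replicate 1, 10 without Cis 6 h replicate 2, and 7 without Cis 21 h replicate 2, and those of mitochondrial ones 11 without PBS replicate 2 or Cis 21 h replicate 2. The footprint medians ran from 0.032 without PBS replicate 1 to 0.15 without Cis 21 h replicate 1 for cytosolic and from 0.048 without PBS replicate 1 to 0.14 without Cis 21 h replicate 1 for mitochondrial ones. In RNA the cytosolic falls were 17 without PBS replicate 2, 16 without Cis 21 h replicate 2, and 14 without PBS replicate 1, the mitochondrial rises 5 without PBS replicate 1, 4 without Cis 21 h replicate 1, 3 without Cis 21 h replicate 2, and 2 without PBS replicate 2 and the mitochondrial falls 1 without PBS replicate 2 or Cis 21 h replicate 2, and 0 without PBS replicate 1. RNA rises of assembly factors were 3 without PBS replicate 2, 1 without Cis 21 h replicate 1, and 0 without PBS replicate 1 or Cis 21 h replicate 2, and their falls 1 without PBS replicate 1. For electron carriers the RNA rises were 2 without PBS replicate 1 and the falls 1 without PBS replicate 1 or 2 or Cis 21 h replicate 1, and for cycle enzymes 1 without PBS replicate 1 or 2 or Cis 21 h replicate 2 and 1 without PBS replicate 1 or 2 or Cis 21 h replicate 1.

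Member features outside the symbol rule were read as descriptions. Coding sequences of the tested members had a median of 411 bases, from 156 for Atp5e to 2181 for Ndufs1, against 1350 bases over all transcripts. The footprint change at 21 h and coding length had a Spearman rho of -0.407 across the 79 members and -0.210 across all 10390 transcripts, and at 6 h of -0.127 and -0.254. In RNA the values were 0.156 and -0.192 at 6 h and -0.0455 and -0.105 at 21 h, so the members had the other sign at 6 h. These are correlations across genes, which share the libraries and are not independent replicates, so no p is given. A negative sign means that shorter coding sequences had the higher values. By complex the median coding length was 439.5 bases in I, 676.5 in II, 333 in III, 258 in IV and 423 in V. The part of coding length in the differences between complexes was not tested.

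Promoters were read from RefSeq (mouse build GRCm38.p6; the deposited files use GRCm39), which held 66 of the 79 tested members. The stretch from 250 bases before the start of transcription to 50 after it was searched on both strands for 3 motifs of factors known to act at respiratory genes: NRF1 (CGCATGCG), ETS factors such as GABP (CCGGAAG) and YY1 (AAGATGGC). Any of the 3 was found in 30 of 66 members (45.5%), in 29.9% of the 8395 tested transcripts with a promoter and in 14.1% of all 27025 genes of the table. NRF1 letters were in 13.6% of members and 4.78% of tested transcripts, ETS letters in 25.8% and 22.1%, and YY1 letters in 15.2% and 5.80%. In mitochondrial and cytosolic ribosomal protein genes the shares were 55.1% and 57.1% for any of the 3, 10.1% and 5.36% for NRF1, 37.7% and 42.9% for ETS and 17.4% and 8.93% for YY1 letters. Over all genes of the table the shares of NRF1, ETS and YY1 letters were 2.07%, 9.93% and 3.19%. A match is a description of letters and not a site. The 100 bases before the start of 4 members, picked after their values were seen, are given next, from the deepest fall (Ndufs4) to 3 rises that span complexes I, IV and V. Each line gives the position, with its strand, and reads 5′ to 3′; capitals mark the NRF1 letters in Ndufa11 and the ETS letters, read on the other strand, in Atp5h. Ndufs4 holds YY1 letters too, but after the start and so outside the bases shown.
Ndufs4, chr13:114388095-114388194 (-): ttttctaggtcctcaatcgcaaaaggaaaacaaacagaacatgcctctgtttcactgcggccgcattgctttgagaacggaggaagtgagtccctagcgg
Cox7a2, chr9:79759854-79759953 (-): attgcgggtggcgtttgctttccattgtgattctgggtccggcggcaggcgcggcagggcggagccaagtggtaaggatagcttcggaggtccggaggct
Ndufa11, chr17:56717662-56717761 (+): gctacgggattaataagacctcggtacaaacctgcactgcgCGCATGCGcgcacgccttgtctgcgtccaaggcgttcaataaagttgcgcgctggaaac
Atp5h, chr11:115419920-115420019 (-): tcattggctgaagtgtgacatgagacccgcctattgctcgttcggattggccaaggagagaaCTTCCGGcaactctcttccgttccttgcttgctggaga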

How the data were processed

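Ribosome footprints and RNA were sequenced from KPC cells without treatment (PBS) or given Cis for 6 h or 21 h, with 2 libraries per group and assay. The authors deposited RPKM per transcript, by coding length for footprints and transcript length for RNA-seq; their notes name cutadapt, STAR and GRCm39, without versions for the tools. Reads were recovered from RPKM, length and depth, and 100% of values came to whole numbers (tolerance 0.02). RPKM were scaled by the median of ratios within an assay. Differences of log2(scaled RPKM + 0.5) were tested with limma 3.58.1 in R 4.3.3 (moderated variance with an intensity trend) where the mean RPKM of a transcript was 1 or more, with Benjamini-Hochberg adjustment over all of them and a threshold of 0.05. TE was the assay-by-treatment term of a joint model. Tables and figures used Python 3.11.15, pandas 2.3.3, numpy 2.4.6, scipy 1.17.1 and matplotlib 3.10.9. The pipeline was tested on simulated data. Alternatives varied the offset, filter, scaling, variance model (voom among them), threshold and libraries. Single genes were named by a rule: up to 3 passing rises and 3 passing falls per complex and comparison, or the largest value where none passed, the core and catalytic subunits, the isoform families and the most abundant pair per complex and assay. The members and lists were chosen with earlier results of these data known. Single-gene results of 1 member are not reported here. Promoter sequence came from RefSeq (GRCm38.p6), and no other genome sequence was used here.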

Additional observations from a re-analysis of the deposited data

Results flagged for a closer look

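These results differed between the 6 h and 21 h effects, or between the assays, in a test of the difference itself. In footprints, 6 members were lower at 21 h than at 6 h: Ndufs4 -1.06 (limma adjusted p = 0.000171), Ndufa6 -0.72 (limma adjusted p = 0.000626), Ndufs6 -0.62 (limma adjusted p = 0.00221), Atp5c1 -0.54 (limma adjusted p = 0.00754), Ndufs7 -0.36 (limma adjusted p = 0.0468) and Ndufb9 -0.28 (limma adjusted p = 0.0219). Higher at 21 h were 12 members, with the values Ndufb1 0.80 (limma adjusted p = 0.000801), Atp5h 0.62 (limma adjusted p = 0.000829), Ndufc2 0.54 (limma adjusted p = 0.0122), Ndufa4 0.49 (limma adjusted p = 0.014), Atp5k 0.47 (limma adjusted p = 0.00233) and Atp5mpl 0.44 (limma adjusted p = 0.0134), and Ndufa2 0.42 (limma adjusted p = 0.0408), Ndufa11 0.40 (limma adjusted p = 0.0415), Uqcrq 0.40 (limma adjusted p = 0.0311), Atp5j 0.33 (limma adjusted p = 0.0486), Cox7a2 0.30 (limma adjusted p = 0.0399) and Cox7c 0.30 (limma adjusted p = 0.0301). Those kept with each library left out were Ndufs4, Ndufa6, Ndufs6, Ndufb1, Atp5h and Atp5k. For the other 12, leaving out at least 1 library ended the call, and values then reached 0.21 for Ndufa11 without Cis 6 h replicate 2, 0.21 for Uqcrq without Cis 21 h replicate 2 and 0.19 for Cox7c without Cis 21 h replicate 2.

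In RNA-seq the same comparison gave lower values for Ndufs4 -1.15 (limma adjusted p = 0.00429), Atp5g2 -0.70 (limma adjusted p = 0.000906) and Uqcr11 -0.69 (limma adjusted p = 0.049), and higher ones for Cox6a1 0.42 (limma adjusted p = 0.0159) and Ndufa4 0.35 (limma adjusted p = 0.041). The difference between the 21 h change in footprints and that in RNA passed for Cox7c 0.69 (limma adjusted p = 0.0408). The causes of these differences were not tested.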

How the results depend on the processing

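Of 55 calls of members, 21 were kept in each alternative fit run for their comparison (16 to 23 fits; the fold limit and the threshold of 0.1, which refit nothing, are given below and not counted here), 34 were lost in at least 1, and 0 changed sign. The footprint fall of Ndufs4 at 21 h is among those kept. In the following, counts are members that rose and members that fell.

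In footprints at 6 h the counts of 3 and 2 were 0 and 0 without the filter, 0 and 0 without the variance trend, 0 and 0 with a fold limit of 1 on the log2 scale, 5 and 3 at an adjusted p under 0.1 and 8 and 3 by voom. In footprints at 21 h, 15 and 4 became 19 and 2 without scaling, 11 and 2 without the trend, 14 and 2 with the compared groups alone and 1 and 1 with the fold limit. Between 6 h and 21 h, 12 and 6 became 6 and 5 without the filter, 3 and 4 without the trend, 20 and 9 at 0.1 and 0 and 1 with the fold limit.

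For RNA at 21 h, 3 and 4 became 5 and 2 without scaling, 0 and 1 without the trend, 2 and 4 by voom, 6 and 4 at 0.1 and 0 and 0 with the fold limit. For RNA between 6 h and 21 h, 2 and 3 became 1 and 2 without the filter, 2 and 5 with a mean RPKM of at least 5, 7 and 2 without scaling, 3 and 6 after quantile normalization, 0 and 2 without the trend, 1 and 2 with the compared groups alone, 0 and 5 by voom, 5 and 8 at 0.1 and 0 and 1 with the fold limit. The 1 rise in TE at 21 h became 0 without the filter, without scaling (0), after quantile normalization (0), without the trend (0), with the compared groups alone (0) and with the fold limit (0), and 3 by voom. The cause was not tested.

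With a library left out, the lone sample of its group is assumed to vary like the other groups. Lowest and highest counts were then 0 to 4 rises and 0 to 3 falls for footprints at 6 h, 13 to 18 and 2 to 4 at 21 h, 4 to 15 and 3 to 6 between the times, 0 to 3 and 1 to 4 for RNA at 21 h, 0 to 3 and 2 to 4 for RNA between the times and 0 to 2 rises in TE at 21 h. Replicate numbers did not pair the libraries (r from -0.0140 to 0.0207 across genes, which are not independent replicates), so the fit with a replicate block is given here alone: 0 and 0 for footprints at 6 h, 15 and 3 at 21 h, 11 and 5 between the times, 3 and 3 and 2 and 3 for RNA, and 0 in TE at 21 h, where the mitochondrially encoded genes had 0 rises.

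Some single genes rest on few reads: Cox7a1 on 8 to 47 footprint reads and 1 to 5 RNA-seq reads in a library, and Ndufs4 on 27 to 72 RNA-seq reads.

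Values that did not pass and took another sign, by more than 1 SE, numbered 70, of which 56 came with a library left out. Those reported are given with the lowest and highest value over the libraries left out, or with the value under the alternative named; the cause was not tested.

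In footprints at 6 h these were Atp5c1 -0.23 to 0.12, Atp5g3 -0.069 to 0.20, Cox5a -0.0058 to 0.34, Cox7a1 -0.56 to 1.02, Cox8a -0.057 to 0.13 and Ndufa2 -0.043 to 0.34. Ndufa4 had -0.085 to 0.24, with Sdhd -0.0050 to 0.25, Uqcrc2 -0.21 to 0.072 and Uqcrh -0.14 to 0.24. For footprints at 21 h they were Atp5g2 -0.25 to 0.10, Atp5g3 -0.21 to 0.065, Cyc1 -0.017 to 0.26, Ndufv1 -0.13 to 0.14, Sdhc -0.12 to 0.044 and Uqcrc2 -0.21 to 0.073. Uqcrh had -0.018 to 0.36. For footprints between 6 h and 21 h they were Atp5g2 -0.35 to 0.0057, Atp5j2 -0.0065 to 0.21, Cox5a -0.056 to 0.29, Cyc1 -0.013 to 0.27, Ndufv1 -0.18 to 0.091 and Uqcrh -0.038 to 0.28. In RNA at 6 h these were Cox6c -0.040 to 0.28, Cox7a1 -1.42 to 0.16, Cox8a -0.29 to 0.034, Ndufs1 -0.17 to 0.43, Ndufs5 -0.069 to 0.23 and Ndufv1 -0.31 to 0.11. Uqcrb had -0.14 to 0.12. For RNA at 21 h they were Atp5g3 0.055 without scaling and 0.091 after quantile normalization, Cox5a -0.10 to 0.10, Cox7a1 -0.83 to 0.75, Cox7a2l -0.0063 to 0.45, Cox8a -0.20 to 0.12 and Ndufb1 -0.35 to 0.26. Sdhb had -0.11 to 0.27, with Uqcrc2 -0.10 to 0.21 and Uqcrfs1 -0.087 to 0.21. For RNA between 6 h and 21 h they were Atp5a1 0.11 without scaling, Atp5c1 0.013 without scaling, Atp5j2 0.12 without scaling, Cox4i1 0.097 without scaling and 0.23 after quantile normalization, Cox5a 0.018 without scaling and Cox7a2l 0.090 without scaling. Ndufa2 had 0.13 without scaling and 0.20 after quantile normalization, with Ndufb1 -0.10 to 0.50, Ndufs5 -0.0047 to 0.30, Sdhb -0.14 to 0.23, Sdhd -0.13 to 0.32 and Uqcrc2 -0.31 to 0.0067 and 0.0035 without scaling. Uqcrfs1 had -0.19 to 0.11 and 0.11 without scaling. In TE at 6 h these were Atp5c1 -0.18 to 0.16, Cox5a -0.15 to 0.20, Cox6c -0.19 to 0.13, Cox7a2l -0.19 to 0.27, Ndufa2 -0.18 to 0.20 and Ndufv1 -0.069 to 0.35. Uqcrh had -0.064 to 0.32. For TE at 21 h they were Atp5j2 -0.20 to 0.10, Cyc1 -0.17 to 0.11 and Ndufs1 -0.22 to 0.38.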
